A study of Mus musculus with 14 samples.

Results

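Hcfc1r1, Pcsk1n, Neurl1a, Enho and Dbi are 5 of the 7756 genes measured in mouse hippocampus, and they were chosen by their low levels in sustained hypoxia (SH) in these same libraries. They are compared here, library by library, with control and intermittent hypoxia (IH). All 5 passed the filter on low counts (a group mean of 40 or more in control, IH and SH alike), which kept 7338 genes. RNA was sequenced from whole hippocampi of male wild-type C57BL/6J mice, 8 weeks old when the exposure began, with 4 control, 5 IH and 5 SH libraries. Control mice breathed 21% oxygen for 28 days. In the IH group oxygen alternated between 10% and 21% in 2-minute cycles for 8 h per day over 28 days, and in the SH group it was held at 10% for 8 h per day over 28 days. No allele or agent was added in any group, and hippocampi were collected after behavioral tests. The control libraries came from a preliminary experiment, so experiment and exposure cannot be told apart in any comparison with control, whereas IH and SH came from the same main experiment. The IH and SH mice were exposed with different gas delivery systems, and SH cages stood in an acrylic box with a fan. Equipment and exposure therefore cannot be told apart in IH vs. SH. The labels do not tie each library to a single mouse, and p-values measure only the spread between these libraries, which may be technical.

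The genes encode unrelated proteins of neurons and glia. Enho encodes the precursor of adropin, a small secreted peptide linked to energy metabolism and to the orphan receptor GPR19. Pcsk1n encodes proSAAS, a granin-like neuroendocrine protein that inhibits prohormone convertase PC1/3 and is itself cleaved into neuropeptides. Dbi encodes diazepam-binding inhibitor, also called acyl-CoA-binding protein, which carries long-chain acyl-CoA inside cells and modulates GABA-A receptors when released. Neurl1a encodes an E3 ubiquitin ligase of the Neuralized family, known for Notch ligand endocytosis and for ubiquitination of the translational regulator CPEB3 in the hippocampus. Hcfc1r1 encodes a small regulator of host cell factor 1 (HCF-1), a transcriptional coregulator, that directs its export from the nucleus.

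In GENCODE annotation of GRCm39, Enho lies on the minus strand at chr4:41638144-41640376, and Dbi on the minus strand at chr1:120041010-120048808. Pcsk1n lies on the plus strand at chrX:7786043-7790649, Neurl1a at chr19:47166995-47248676 and Hcfc1r1 at chr17:23892556-23896722. Over whole transcripts, Enho had the highest and Dbi the lowest GC content of the members, and their short coding sequences are shown from start to stop codon, with G and C in capitals. G and C made up 61.0% of the 231 coding bases of Enho and 48.1% of the 264 coding bases of a 569-base Dbi transcript, while the canonical coding sequences of Pcsk1n (71.9%), Neurl1a (66.3%) and Hcfc1r1 (61.7%) exceeded that of Enho.
Enho: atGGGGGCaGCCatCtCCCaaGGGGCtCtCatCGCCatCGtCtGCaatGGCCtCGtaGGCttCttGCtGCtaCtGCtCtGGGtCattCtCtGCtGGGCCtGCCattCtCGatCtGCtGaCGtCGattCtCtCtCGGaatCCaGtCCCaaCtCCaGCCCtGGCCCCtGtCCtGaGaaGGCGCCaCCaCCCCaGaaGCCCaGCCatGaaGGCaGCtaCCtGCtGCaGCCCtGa
Dbi: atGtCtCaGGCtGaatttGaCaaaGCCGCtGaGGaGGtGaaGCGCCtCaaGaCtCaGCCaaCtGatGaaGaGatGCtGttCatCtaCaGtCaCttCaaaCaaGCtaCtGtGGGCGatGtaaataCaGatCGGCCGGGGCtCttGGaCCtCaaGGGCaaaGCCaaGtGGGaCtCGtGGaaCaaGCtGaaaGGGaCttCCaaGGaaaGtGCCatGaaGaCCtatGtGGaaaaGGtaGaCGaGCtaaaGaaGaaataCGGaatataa

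Enho had the lowest SH level relative to control of these genes. Its normalized count, the count scaled by the TMM-adjusted library size, was 1011, 1087, 1051 and 1017 in the control libraries. The IH libraries had 639.5, 644, 942, 786 and 688, and the SH libraries 543, 513, 394, 429.8 and 515. The 3 groups did not overlap, and IH libraries were the most spread, with IH 3 nearest to control. The mean SH level was 46.0% of the control mean, with a log2 fold change of -1.12 (SE 0.12, n = 5 against 4), which is given without a test because SH values chose the gene. In IH, which was tested with the same control libraries that entered the choice, the level was 71.0% of control and fell by 0.49 on the log2 scale (SE 0.12, adjusted p = 0.0146, quasi-likelihood test in edgeR, adjusted by Benjamini-Hochberg over all 7338 genes). Without control 2 this adjusted p was 0.05005, just above the threshold of 0.05, and without IH 3 the log2 fold change was -0.60.

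Pcsk1n was the most abundant member in counts. The normalized counts were 12443, 11636, 10715 and 10401.5 in control, 8318, 9078, 10282, 9236 and 9282 in IH, and 6738, 5009, 5802, 5926 and 5881 in SH. Each SH library lay below each IH library and each IH library below each control library, with IH 3 close to the lowest control library. SH stood at 52.0% of the control mean (log2 fold change -0.94, SE 0.083) and IH at 81.8%. The level fell by 0.29 on the log2 scale in IH vs. control (SE 0.083, adjusted p = 0.0365, edgeR). This call rested on the set of libraries, since the adjusted p was 0.117 without control 1, 0.0948 without control 2, 0.0794 without IH 1, 0.0667 without IH 2, 0.0672 without IH 4 and 0.0606 without IH 5.

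Dbi was low in SH and overlapped control in IH. Its normalized counts were 2085, 1978, 1967 and 1793 in control and 1893, 1907, 2195, 1974 and 2173 in IH, with 2 of the 5 IH libraries below the control mean. In SH they were 1199, 1342, 1290.4, 1119 and 1235, below every library of both other groups. The log2 fold change was -0.66 in SH vs. control (SE 0.070) and 0.71 in IH vs. SH (SE 0.067), both given as descriptions. By RT-qPCR relative to Gapdh, the paper reported no significant difference in Dbi between control, IH and SH. Its RT-qPCR controls were extracted in the main experiment, unlike the control libraries here. The IH group did not pass the test against control (0.052, SE 0.070, adjusted p = 0.637, edgeR), and over 24 alternatives of the processing its adjusted p ranged from 0.0969 to 0.918. A stretch on chromosome 11 from 54090264 to 54090684, at the genes Gm12222 and 4933405E24Rik, matched 423 bases of the Dbi transcript with 93.1% identity, so part of its reads could have been assigned there.

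Neurl1a had the smallest spread between libraries and the smallest SH difference. Control libraries had 6465, 6199, 6012 and 5863 normalized counts, IH libraries 4974, 4870.3, 5233, 5062 and 4614, and SH libraries 4522, 4017, 4259, 4226 and 4072. The groups were again separate, with the lowest IH library (IH 5) just above the highest SH library (SH 1). The log2 fold change was -0.54 in SH vs. control (SE 0.053). Neurl1a fell by 0.31 in IH vs. control (SE 0.053, adjusted p = 0.00290, edgeR), and no left-out library changed this call.

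Hcfc1r1 had the tightest IH values. It was counted at 1020.1, 1128, 1000.1 and 1078 in control, at 730.4, 743, 754, 784 and 743 in IH and at 618, 588, 688, 587 and 586 in SH. SH 3 was the highest SH library and still lay below every IH library. The log2 fold change was -0.78 in SH vs. control (SE 0.066), where the SH mean was 58.1% of the control mean. The level fell by 0.49 in IH vs. control (SE 0.066, adjusted p = 5.48e-04, edgeR), and this call was kept in all 24 alternatives, with adjusted p-values up to 0.00562.

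**Figure D1:**
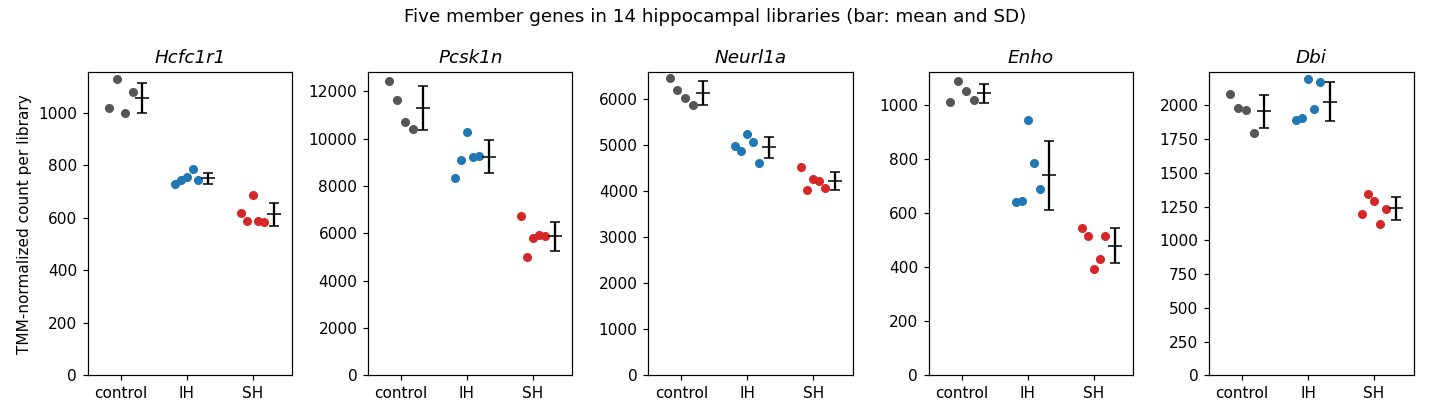
TMM-normalized counts (vertical axes, from 0) of the 5 genes in the control (gray), IH (blue) and SH (red) libraries, 1 point per library, with bars for the mean and SD. SH libraries lie below all control and all IH libraries in every panel, while IH libraries lie below control in every panel except that of Dbi.

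In SH, 5 of 5 members had every library below every control library, as had 10.6% of all genes tested, and every SH library was below every IH library for 5 of 5 members against 2.63% of all genes. Because SH levels chose these genes, nothing is read from those shares. Against control, 4 of 5 members were called lower in IH, where 4.85% of all genes tested were called lower and 6.08% higher. The same 4 had every IH library below every control library, against 7.48% of all genes. These IH values share the control libraries with the SH difference by which the genes were selected, so they are not independent of the choice. For IH vs. SH, the log2 fold changes were 0.71 for Dbi, 0.65 for Pcsk1n, 0.62 for Enho, 0.29 for Hcfc1r1 and 0.23 for Neurl1a, with standard errors of 0.067, 0.079, 0.11, 0.063 and 0.051.

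The ranks of the members in SH vs. control describe the choice and were not tested. Among genes with lower levels in SH, Hcfc1r1 ranked 1, Pcsk1n 3, Neurl1a 4, Enho 5 and Dbi 7 by p, with Rpl38 and Gng13 between them and Mrpl52 next. By log2 fold change, Enho ranked 5, Pcsk1n 15, Hcfc1r1 38, Dbi 73 and Neurl1a 161 of 7338 genes. The 5 lowest log2 fold changes were those of Gng13 (-1.66), Npas4 (-1.44), Pcdha11 (-1.35), Egr4 (-1.19) and Enho (-1.12). The pooled within-group SD was 0.066 log2 units for Neurl1a and 0.19 for Enho, the lowest and the highest among the members.

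Levels between genes were compared per length, as CPM per kilobase of the median coding transcript. In control, Pcsk1n had 759.8 ± 62.2, Dbi 382 ± 23.6, Neurl1a 159.5 ± 6.75, Hcfc1r1 92.8 ± 5.10 and Enho 87.6 ± 2.93 (SD, n = 4 each). The last 2 neighbors in this order overlapped within their SDs. In SH the order was the same, with 395 ± 41.2, 242 ± 16.7, 109.7 ± 5.14, 53.9 ± 3.84 and 40.3 ± 5.37 (SD, n = 5 each). The place of Hcfc1r1 depended on the transcript model, since its canonical transcript of 3493 bases gave 33.6 in control, below Enho.

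Single libraries did not shift all members together in SH. SH 1 was the highest SH library for Pcsk1n, Neurl1a and Enho, SH 3 for Hcfc1r1 and SH 2 for Dbi. SH 2 was the lowest for Pcsk1n and Neurl1a, and SH 3, the highest for Hcfc1r1, was the lowest for Enho. In IH, the members were all above their group means in IH 3 and all below in IH 2. Leaving out any of the 14 libraries in turn kept the SH vs. control log2 fold changes within -1.17 to -1.06 for Enho, -0.999 to -0.89 for Pcsk1n, -0.70 to -0.63 for Dbi, -0.57 to -0.51 for Neurl1a and -0.83 to -0.75 for Hcfc1r1.

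The genes with the most similar profiles over the 14 libraries differed between members. Likeness was the root mean square difference of log2 levels, each centered on its mean, over the 14 libraries. Epn1 (0.049), B3gat3 (0.061) and Insyn1 (0.064) were nearest to Neurl1a, and Rpl38 (0.12), Neurl1a (0.13) and Kcng2 (0.13) to Hcfc1r1. Enho was nearest to Pcsk1n (0.18), followed by Mrpl52 (0.19) and S100a13 (0.21). The genes nearest to Pcsk1n were Chchd10 (0.16), Mrpl52 (0.17) and Rps19 (0.17), and those nearest to Dbi were Snrpf (0.14), Swi5 (0.16) and Mrpl54 (0.16). The GC contents of Epn1, B3gat3 and Insyn1 were 62.2%, 61.3% and 60.6%, near that of Neurl1a, and those of Rpl38 and Kcng2 were 56.2% and 56.8%, near that of Hcfc1r1. Near Pcsk1n and Enho, Chchd10 had 51.3%, Mrpl52 53.4%, Rps19 58.6% and S100a13 52.5%, and near Dbi, Snrpf had 38.9%, Swi5 49.2% and Mrpl54 59.2%.

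Ratios of counts within a library do not depend on scaling between libraries. The ratio of Pcsk1n to Dbi counts was 5.45 to 5.97 in control, 4.27 to 4.76 in IH and 3.73 to 5.62 in SH. The IH range was below the control range, and the SH range overlapped both. The mean ratio of Neurl1a to Dbi was 3.14 ± 0.092 in control (SD, n = 4), with 2.45 ± 0.20 and 3.43 ± 0.34 over the 5 IH and the 5 SH libraries. That of Hcfc1r1 to Dbi was 0.54 ± 0.052, 0.37 ± 0.027 and 0.497 ± 0.040 in the same order. For Enho to Dbi it was 0.53 ± 0.035, 0.36 ± 0.048 and 0.39 ± 0.055.

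Length and GC content of the transcripts moved with the comparisons against control. Enho, Pcsk1n and Neurl1a had GC contents of 65.8%, 63.4% and 63.4%, higher than 99.6%, 98.5% and 98.5% of 7307 genes with a transcript model. Hcfc1r1 had 57.6% and Dbi 49.0%, against a median of 51.0% over these genes. By length, Dbi (569 bases), Hcfc1r1 (1266), Enho (1321) and Pcsk1n (1653) were below the median of 3044.5 bases, and Neurl1a (4275) above it. Enho, Pcsk1n and Neurl1a thus lay at an extreme of GC content, and Dbi at an extreme of length. The place of Pcsk1n depended on the transcript model, since its canonical transcript had 57.5% GC, next to Hcfc1r1 at 57.6%, and trends taken from canonical transcripts left it at -0.18 in IH vs. control.

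**Figure D2:**
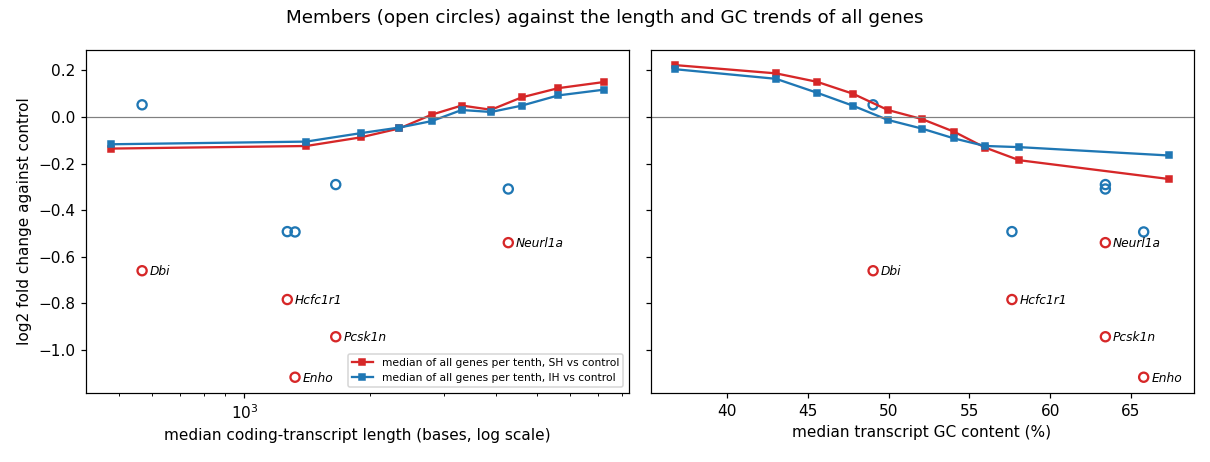
Log2 fold change against control (vertical axis) of the 5 genes (open circles, red for SH and blue for IH) over transcript length on a log axis and over GC content, with lines through the medians of all genes in 10 bins. The medians fall with GC content, from 0.22 to -0.27 in SH, and all red circles lie below the red line.

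Genes were divided into 10 bins of nearly equal size. The bin with the highest GC content, 59.2% to 75.5%, had median log2 fold changes against control of -0.27 for SH and -0.17 for IH. Enho, Pcsk1n and Neurl1a belong to it and were each further below 0 than this SH median. The bin of the shortest genes, with Dbi, had a median of -0.14 in SH vs. control, and the next bin, with Hcfc1r1, Pcsk1n and Enho, -0.12. At the length and GC content of the members, the smoothed trend of all genes in SH vs. control was -0.42 for Enho, -0.34 for Pcsk1n, -0.29 for Neurl1a, -0.20 for Hcfc1r1 and -0.070 for Dbi.

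Removal of the length and GC trends of each library left all 5 SH differences negative and smaller in size. In SH vs. control the log2 fold change was then -0.70 for Enho, -0.61 for Pcsk1n, -0.59 for Dbi, -0.59 for Hcfc1r1 and -0.25 for Neurl1a, the last from -0.54. Hcfc1r1 remained called in IH vs. control at -0.35 (adjusted p = 0.00562, edgeR). The others did not pass, with -0.19 for Enho (adjusted p = 0.312, range over the alternatives 0.00162 to 0.312), -0.062 for Pcsk1n (0.509, range 0.0136 to 0.509) and -0.11 for Neurl1a (0.229, range 1.62e-05 to 0.229). For Dbi, IH vs. control was 0.14 with both trends removed, 0.18 with the length trend removed and 0.19 with canonical transcripts, and did not pass in any of them. In IH vs. SH the values were less affected, and Neurl1a moved from 0.23 to 0.14.

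**Figure D3:**
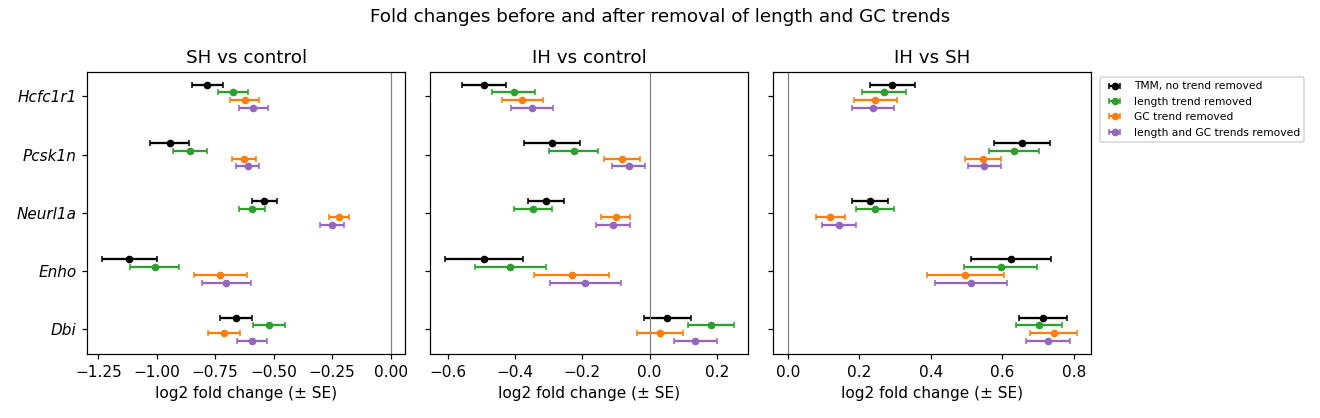
Log2 fold changes (horizontal axes, bars for SE) of the 5 genes in the 3 comparisons with TMM scaling alone and after removal of the length trend, the GC trend or both. All SH vs. control values stay below 0, and the IH vs. control value of Pcsk1n moves from -0.29 to -0.062 with both trends removed.

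The libraries themselves differed in these trends. The slope of log2 level on GC content, in log2 units per 10 percentage points across genes, was 0.050 to 0.22 in control, -0.068 to -0.0078 in IH and -0.18 to 0.040 in SH. Both hypoxia groups lay below control (difference -0.17 in IH and -0.22 in SH, exact permutation test, 2-sided, p = 0.0159 each, the smallest this test can give with 4 against 5 libraries, 0.0317 after Benjamini-Hochberg adjustment over 6 tests), and IH and SH overlapped (0.046, exact p = 0.270, adjusted p = 0.324). The slope per doubling of length was higher in SH than in control by 0.078 (exact p = 0.0159, adjusted p = 0.0317), while IH vs. control (0.061, exact p = 0.0794, adjusted p = 0.119) and IH vs. SH (-0.016, exact p = 0.619, adjusted p = 0.619) did not pass. IH 3 had a length slope of -0.065, below the control range of -0.061 to -0.036, with the other IH libraries at 0.026 to 0.036, and without it the IH vs. control difference was 0.081 (exact p = 0.0286) and the IH vs. SH difference turned to 0.0028 (exact p = 0.778). SH 1, the highest SH library for Enho, Pcsk1n and Neurl1a, had the highest GC slope in SH (0.040), and SH 2, the lowest for Pcsk1n and Neurl1a, the lowest (-0.18). Enho, the member with the highest GC content, was above its group mean in SH 2 by 0.11 log2 units. Without SH 1, the IH vs. SH difference in GC slope was 0.076 (exact p = 0.0317). The table keeps genes that departed from control, so group labels entered the choice of genes behind these slopes. The slope differences from control and their p-values are therefore not independent of that choice. The part of these slopes in the members' differences was not tested beyond the removal of the trends.

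**Figure D4:**
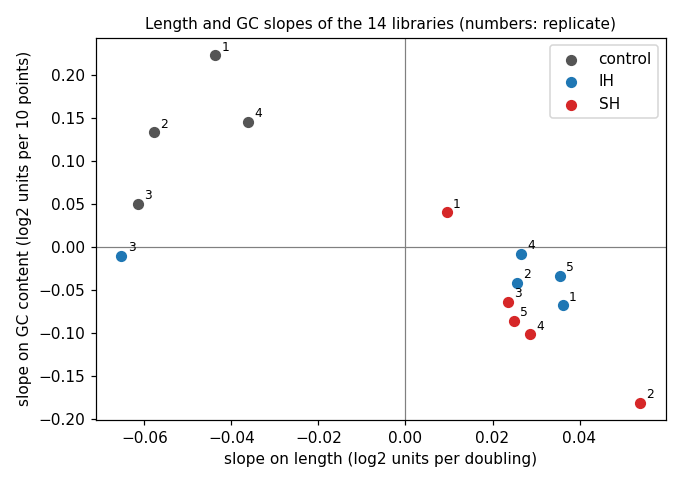
Slope on length (horizontal axis, log2 units per doubling) against slope on GC content (vertical axis, log2 units per 10 points) of the 14 libraries, numbered by replicate and colored by group. Control libraries lie at the upper left, with GC slopes of 0.050 to 0.22, and IH 3 lies left of them all on the length axis.

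Promoter sequences, from 250 bases before the canonical start to 50 bases from it in GRCm39, were searched on both strands for the core letters of the hypoxia response element, ACGTG and GCGTG, which 23.96% and 47.3% of 7307 promoters hold. The windows of Hcfc1r1 (chr17:23892306-23892605, plus strand), Neurl1a (chr19:47166745-47167044, plus strand) and Dbi (chr1:120048618-120048917, minus strand) hold a match and are shown with the matches in capitals, where CACGC is GCGTG on the other strand. In Neurl1a the match is the palindrome CACGTG, which holds overlapping ACGTG matches on both strands. No match was found in these windows of Enho and Pcsk1n. The GC box GGGCGG, in 56.5% of promoters, matched in Pcsk1n alone, and TGACG, in 26.7% of promoters, in none of the 5. Promoter GC contents ran from 48.7% in Neurl1a to 61.7% in Dbi, around the median of 58.0% of all promoters.
Hcfc1r1: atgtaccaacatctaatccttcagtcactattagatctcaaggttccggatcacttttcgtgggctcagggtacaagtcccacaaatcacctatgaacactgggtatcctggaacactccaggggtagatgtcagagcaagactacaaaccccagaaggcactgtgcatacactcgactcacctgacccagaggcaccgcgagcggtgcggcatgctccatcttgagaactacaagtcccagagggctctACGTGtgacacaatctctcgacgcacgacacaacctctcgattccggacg
Neurl1a: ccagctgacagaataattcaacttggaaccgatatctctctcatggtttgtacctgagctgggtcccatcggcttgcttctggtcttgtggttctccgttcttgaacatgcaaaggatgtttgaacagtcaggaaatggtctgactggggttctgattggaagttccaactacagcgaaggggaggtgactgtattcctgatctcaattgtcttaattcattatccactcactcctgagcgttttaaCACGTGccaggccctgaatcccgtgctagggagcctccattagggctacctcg
Dbi: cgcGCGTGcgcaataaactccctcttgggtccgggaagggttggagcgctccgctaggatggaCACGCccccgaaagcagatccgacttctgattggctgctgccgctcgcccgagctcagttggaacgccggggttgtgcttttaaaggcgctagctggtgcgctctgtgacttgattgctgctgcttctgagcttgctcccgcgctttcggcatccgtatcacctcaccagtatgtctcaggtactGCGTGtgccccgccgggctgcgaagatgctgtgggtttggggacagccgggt

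Genes that work with the members were counted in 6 lists, which hold 119 different genes, 62 of them tested. For proSAAS these were the enzymes and proteins of prohormone processing and secretory granules, with 9 of 20 genes tested. In SH vs. control, 2 of the 9 were called lower and 0 higher, where 10.5% of all genes were called lower and 10.2% higher. Scg5, which encodes the chaperone 7B2 of prohormone convertase 2, fell from 2665 ± 209 (SD, n = 4) to 2086 ± 101 (SD, n = 5) normalized counts (log2 fold change -0.35, SE 0.072, adjusted p = 0.00472, edgeR), a call kept in all 24 alternatives. In IH vs. SH it did not pass, but did with the trends removed (0.25, adjusted p = 0.0239, against 0.0968 without removal; edgeR). DESeq2 also called 1 gene of this list higher in IH vs. SH. Chga, for the granule protein chromogranin A, fell by 0.27 (adjusted p = 0.0360), a call lost without control 1, control 2, IH 4, SH 4 or SH 5 (adjusted p from 0.0518 to 0.132) and with the trends removed (-0.089, 0.545). Scaling by library total also ended the Chga call (-0.25, adjusted p = 0.0534). Pcsk1, the convertase that proSAAS inhibits, had a log2 fold change of 0.30 (SE 0.18, adjusted p = 0.242). In IH vs. control only Gpr83, a receptor for a proSAAS peptide, was called (0.37, adjusted p = 0.0483), 1 of 9 genes where 6.08% of all genes were called higher, and 19 of 24 alternatives lost the call, among them the loss of any single library other than control 3 or IH 1 (adjusted p up to 0.128).

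For Dbi, 6 of 18 genes of acyl-CoA binding and synthesis and 8 of 12 GABA-A receptor subunits were tested. Acbd6, another acyl-CoA-binding protein, fell by 0.33 in IH vs. control (adjusted p = 0.0141) and by 0.26 in SH vs. control (adjusted p = 0.0252, edgeR). With the trends removed the values were -0.43 in IH (adjusted p = 0.00606) and -0.41 in SH (adjusted p = 0.00650). The IH call was lost without control 2 (0.0600) and the SH call without control 1 (0.0528), control 2 (0.0884) or SH 4 (0.0625). Acsl4, an acyl-CoA synthetase that prefers arachidonate, rose by 0.34 in SH (adjusted p = 0.0160). Leaving out control 1 ended this call (adjusted p = 0.0527), as did removal of the trends, which gave 0.10 (adjusted p = 0.494). No acyl-CoA gene and no GABA-A subunit was called in IH vs. SH, where only 0.899% of all genes were called lower and 1.47% higher. No GABA-A subunit was called in IH vs. control, where these shares were 4.85% and 6.08%.

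For Enho, 6 of 7 listed partners and regulators were tested. The IH group differed from control in Nr1d1. This clock repressor fell by 0.35 (adjusted p = 0.0374, edgeR) and its paralog Nr1d2 rose by 0.31 (adjusted p = 0.0121). The Nr1d1 call was lost without control 1, control 2, control 4 or IH 1 (adjusted p from 0.0631 to 0.117) and in a fit of only these groups (0.0614). Both calls were lost with the trends removed (adjusted p = 0.122 and 0.109). Gpr19, the receptor linked to adropin, had -0.017 in SH vs. control (SE 0.11, adjusted p = 0.930) and -0.18 in IH vs. control (SE 0.11, adjusted p = 0.262). None of the 6 was called in SH vs. control, where 10.5% of all genes were called lower and 10.2% higher. The same held in IH vs. SH, where these shares were 0.899% and 1.47%.

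For Neurl1a, 21 of 37 Neuralized, Notch and CPEB genes were tested. In SH vs. control 4 were called higher and 1 lower, where the shares of all genes were 10.2% and 10.5%. Cpeb4, a translational regulator of the CPEB family, rose from 3337 ± 78.0 (SD, n = 4) to 4361 ± 212 (SD, n = 5) normalized counts (0.39, SE 0.051, adjusted p = 3.92e-04, edgeR), and Adam10, a protease that cleaves Notch, rose by 0.39 (adjusted p = 8.62e-04). Cpeb2 rose by 0.29 (adjusted p = 0.0149). Adam17 (0.29, adjusted p = 0.0341) and Aph1a (-0.25, adjusted p = 0.0187), a protease and a gamma-secretase subunit, were named after their values were seen. Adam17 lost its call without control 1, control 2, control 3, SH 2, SH 4 or SH 5 (adjusted p from 0.0516 to 0.0854), and Aph1a without control 3 (0.0557). With the trends removed, Adam10 remained called (0.29, adjusted p = 0.00664), unlike Cpeb4 (0.13, adjusted p = 0.111), Cpeb2, Adam17 and Aph1a. Rbpj, the DNA-binding protein of Notch signaling, rose by 0.38 in IH vs. control (adjusted p = 0.0156, and 0.0511 without control 1), and Adam10 by 0.30 (adjusted p = 0.00731). With the trends removed Adam10 remained called here too (0.23, adjusted p = 0.0231) and Rbpj did not (adjusted p = 0.106), although both Adam10 calls were lost when the trends were taken from canonical transcripts (adjusted p = 0.199 in IH and 0.0636 in SH). In IH vs. SH, Cpeb4 was lower by a log2 fold change of -0.24 (adjusted p = 0.0166, and 0.0661 in a fit of only these groups), the single called gene of all 6 lists before removal of the trends, where 0.899% of all genes were called lower and 1.47% higher.

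For Hcfc1r1, 12 of 26 genes of HCF-1 complexes and partners were tested. Gabpa, a transcription factor that binds HCF-1, rose from 674 ± 36.4 (SD, n = 4) to 997 ± 76.0 (SD, n = 5) normalized counts in IH (0.56, SE 0.089, adjusted p = 0.00154, edgeR), a call kept in all 24 alternatives. In SH it rose by 0.30 (adjusted p = 0.0249), a call lost without control 1, control 2, SH 4 or SH 5 (adjusted p from 0.0525 to 0.0844). Hcfc2, the HCF-1 paralog, rose by 0.37 in IH (adjusted p = 0.0304) and by 0.38 in SH (adjusted p = 0.0187). Its IH call was lost without any control library, IH 2 or IH 5 (adjusted p from 0.05001 to 0.102), and its SH call without control 1 (0.0677). Xpo1, the nuclear export receptor, rose by 0.33 in IH (adjusted p = 0.00746). In SH, Setd1b, a histone methyltransferase, fell by 0.27 (adjusted p = 0.0273), which was lost without control 1, control 4, SH 3 or SH 4 (adjusted p from 0.0508 to 0.0901). Ogt, the glycosyltransferase that cleaves HCF-1 and was named after its value was seen, rose by 0.25 in SH (adjusted p = 0.00918). Of these calls, that of Gabpa in IH remained with the trends removed, and Cxxc1, a subunit of histone methyltransferase complexes that was named after its value was seen, then passed in SH (0.26, adjusted p = 0.0442, against 0.121 without removal).

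**Figure D5:**
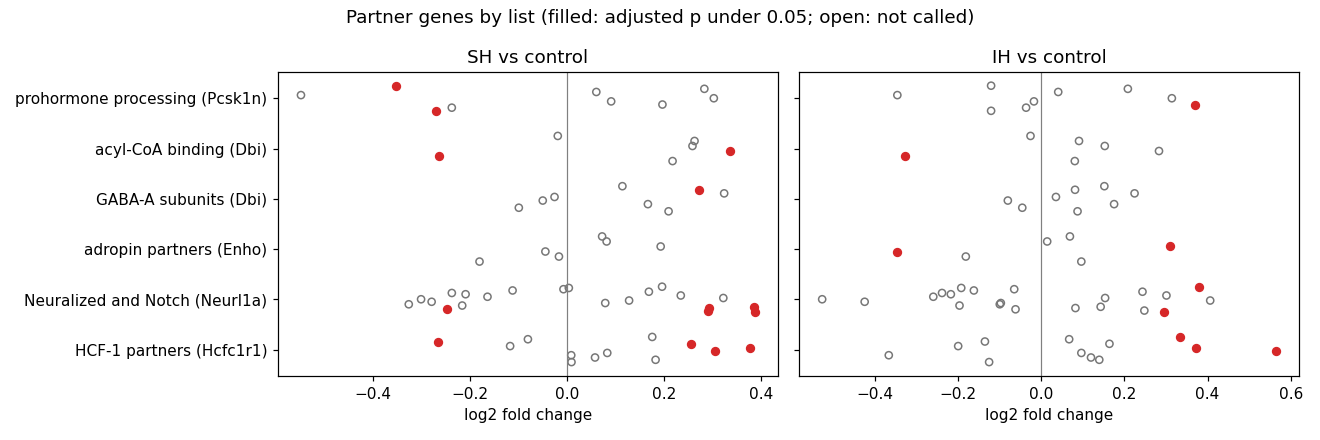
Log2 fold changes (horizontal axes) of the tested genes of the 6 partner lists in SH vs. control and IH vs. control, filled where the adjusted p was under 0.05. Most genes are open circles, and the filled ones lie on both sides of 0.

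The median log2 fold change of all genes was -0.015 in IH vs. control and 0.0035 in SH vs. control. The list medians in SH vs. control were 0.060 for prohormone processing, 0.24 for acyl-CoA genes, 0.14 for GABA-A subunits, 0.028 for adropin partners, 0.0036 for Neuralized and Notch, and 0.070 for HCF-1 partners. In IH vs. control the same medians were -0.018, 0.086, 0.084, 0.041, -0.065 and 0.11.

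In whole tissue, fewer cells of a type and less RNA per cell cannot be told apart. The summed normalized counts of 5 of 9 listed microglia markers in the table were 4783 to 5330 in control, 4428 to 5513 in IH and 3628 to 4475 in SH, so that SH lay below control without overlap, as the members did. Of the 5 markers, 3 were called lower in SH vs. control, where 10.5% of all genes were called lower and 10.2% higher. In IH vs. control these shares of all genes were 4.85% and 6.08%. Endothelial markers, 7 of 7, were 4942 to 5660 in control and 5810 to 6334 in SH, where 2 of the 7 were called higher. GABAergic interneuron markers, 7 of 9, were 14562.5 to 17213 in control, 15292 to 17396 in IH and 14090 to 18113 in SH, where 1 was called higher. Only 3 of 12 astrocyte markers (Gfap, S100b and Gjb6) were in the table, at 9772 to 12111 in control, 10471 to 13397 in IH and 8867 to 11580 in SH, and glia are known to express Dbi. Gjb6 was called higher in IH vs. control (0.47, adjusted p = 0.00203, edgeR) and in SH vs. control (0.30, adjusted p = 0.0134), whereas Gfap and S100b were called in neither. Hippocampal excitatory neuron markers, 10 of 12, were present at 145506 to 166977 in control, 136702 to 161131 in IH and 130210 to 166267 in SH. Of these 10, 1 was called lower and 1 higher in SH vs. control, and 1 higher in IH vs. control. Erythrocyte markers were lower in IH than in control (1649 to 2304 against 2926 to 3189) and overlapped control in SH (2203 to 3081). Choroid plexus markers, all 16 present and Kcnj13 and Slc4a5 at 0 in a library, ranged from 4114 to 126815 in control, 5164 to 77314 in IH and 4774 to 94024 in SH. Oligodendrocyte markers, 9 of 10, were 73127 to 108464 in control, 84091 to 191204 in IH and 83531 to 144904 in SH, and 1 of them, Ermn, was called higher in both comparisons with control. The part of these cell types in the members' differences was not tested. Without control 4, which held the most choroid plexus RNA, the SH vs. control log2 fold changes were -1.13 for Enho, -0.98 for Pcsk1n, -0.70 for Dbi, -0.56 for Neurl1a and -0.77 for Hcfc1r1.

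Total counts per library on the 7756 genes were 8352355 to 11777101 in control, 7568082 to 10578076 in IH and 7203659 to 10480839 in SH, and the lowest count of a member in a library was 324, for Enho in SH 3. Exonic bases of Hcfc1r1 are shared with the opposite-strand genes Tnfrsf12a (1965 of 3493 bases of the canonical transcript) and Thoc6 (1009), and Tnfrsf12a had 23 to 66 counts per library. Enho shares 539 of 1321 bases with the opposite-strand noncoding gene Gm12406. Neurl1a shares 690 of 4422 bases with Gm55328 on its own strand, which strand cannot resolve. The library kit is directional, but the strand setting of the counting was not given in the sources used here, so reads of such partners may not have been told apart.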

How the data were processed

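Poly(A)-selected RNA from 4 control, 5 IH and 5 SH hippocampi was sequenced with a directional kit. The authors trimmed reads with fastp 0.23.4, aligned them to GRCm39 with HISAT2 2.2.1, and deposited estimated counts per gene from StringTie 2.2.1, without normalization, in a table of 7756 genes. Per the methods, the table holds protein-coding genes that exceeded 40 counts in each group and departed from control after processing, although 418 of them had a group mean under 40. Adjusted p-values, shares of called genes, medians of the length and GC bins, and library slopes with their tests therefore hold within this selection. The 10 genes with values that were not whole were rounded. Groups and replicate numbers were taken from the labels. Exposure began at an age of 8 weeks.

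The 7338 genes whose mean reached 40 counts in all 3 groups were scaled by TMM and fitted in 1 model of 3 groups with edgeR 4.0.16 (R 4.3.3), by the quasi-likelihood test with Benjamini-Hochberg adjustment over all genes and a threshold of 0.05. Standard errors were obtained from the log2 fold change and its F statistic. The 5 members and all lists were chosen with earlier results of these data known. Members were tested in IH vs. control only. Named genes were the members, the called genes of each partner list (at most 3 with the largest fold change per comparison), the 3 genes nearest in profile to each member and the 5 lowest log2 fold changes in SH vs. control; genes named outside this rule are said to be so. The result of 1 gene that the rule names is not reported here. Length and GC content are medians over coding transcripts of GENCODE vM39, from which sequences and positions were also taken. 7707 symbols matched directly, 16 by synonym and 33 not. Trends were fitted per library by loess (span 0.3) and removed as offsets. Slopes used an offset of 0.5 on the log2 scale. Alternatives were DESeq2 1.42.0, no filter, scaling by library total or 80th percentile, a replicate block, fitting the compared groups alone, removal of the length trend, the GC trend or both, leaving out each library and, added after the data were seen, trends from canonical transcripts. Total counts per library were 7203659 to 11777101, and counting error weighs most on genes with few counts. The chi-square per degree of freedom between libraries of a group was at least 8.96, so no library was a duplicate of another in its group. Pairs from different groups were not checked. The test and the trend removal were tested on simulated data.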

Additional observations from a re-analysis of the deposited data

Results flagged for a closer look

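Each flagged library lay apart from the others of its group by more than Dixon's 95% critical value for the gap over the range, among 48 groups of values looked at; chance flags about 1 in 20 groups. IH 3 had a length slope of -0.065 against 0.026 to 0.036 in the other IH libraries. Without IH 3, the log2 fold changes in IH vs. control were -0.60 for Enho, -0.33 for Pcsk1n, -0.33 for Neurl1a, -0.49 for Hcfc1r1 and 0.022 for Dbi. The summed choroid plexus markers were 126815 in control 4 and 4114 to 5630 in the other control libraries (4113.57 to 5629.84 before rounding). Without control 4, the value of Dbi in IH vs. control was 0.014. The summed oligodendrocyte markers were 191204 in IH 5 and 84091 to 106929 in the other IH libraries. The summed thalamus and striatum markers were 5787 in IH 5 against 2907 to 3737, and 5650 in SH 5 (5649.83) against 2880 to 3369 (2879.74 to 3369.31). No normalized count of a member stood apart in this way in any group. The part of these libraries in the members' differences was not tested beyond leaving each of them out.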

How the results depend on the processing

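Of 1934 values recomputed over 24 alternative settings, 1 changed direction. Many of these values are counts of called genes, which cannot change direction, so that number does not describe them. Among values of the members, all genes called and library slopes, 18 lost a call, 39 moved by more than a set margin and 2 newly passed. In this set 434 stayed the same. Among values of the partner genes and lists, 120 lost a call, 114 moved and 1206 stayed the same. Hcfc1r1 kept its call in IH vs. control in all 24 settings, and Dbi passed in none. In IH vs. control, Pcsk1n did not pass with the replicate block (-0.29, adjusted p = 0.0565), the length trend removed (-0.23), the GC trend removed (-0.082), both removed (-0.062) or both from canonical transcripts (-0.18). Neurl1a did not pass with the GC trend removed (-0.10), both (-0.11) or both from canonical transcripts (-0.11), and Enho did not with -0.23, -0.19 and -0.19 in the same order. With single libraries left out, Pcsk1n ranged from -0.33 to -0.24 and Enho from -0.60 to -0.45. Replicate numbers were not treated as pairs, since the deviations of same-numbered libraries correlated at over 0.1 in 6 of 13 pairs, from -0.30 to 0.46. The block also ended the partner calls of Gabpa in SH (0.29, adjusted p = 0.0543), Adam17 in SH (adjusted p = 0.0664) and Gpr83 in IH (adjusted p = 0.0578).

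In SH vs. control, the values with the GC trend removed, both removed and both from canonical transcripts were -0.62, -0.59 and -0.64 for Hcfc1r1, -0.63, -0.61 and -0.79 for Pcsk1n, -0.22, -0.25 and -0.25 for Neurl1a, and -0.73, -0.70 and -0.71 for Enho. The length trend alone gave -0.67 for Hcfc1r1 and -0.52 for Dbi, and canonical transcripts -0.55 for Dbi. In IH vs. SH, Neurl1a was at 0.12, 0.14 and 0.14. The genes called numbered 802 in IH vs. control, 423, 418 and 442 under these settings, and 386 to 979 with a library left out. They numbered 1514 in SH vs. control, 450.0, 448 and 469 under these settings and 906 to 1743 with a library left out, and 174 in IH vs. SH, 300.0 with DESeq2, 64 in a fit of only these groups and 88 to 178 with a library left out. Moves of over 1.5 times came from leaving out control 1 (408), control 2 (386) or control 4 (518) for IH vs. control, from control 1 (906) or control 2 (979) for SH vs. control, and from any of IH 1 to 4 or SH 2 to 5 for IH vs. SH (88 to 114). The causes were not tested.

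With a library left out, the difference in length slope ranged from 0.055 to 0.081 in IH vs. control and from -0.023 to 0.0028 in IH vs. SH, where it changed direction without IH 3, and that in GC slope from 0.020 to 0.076 in IH vs. SH. The table keeps genes selected against control and 4 or 5 libraries per group, and depth limits the members little, as the lowest member count was 324.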
